A study of Mus musculus with 3 samples.

Results

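Fc receptors bind the constant part of antibodies. The 10 genes described here encode the Fc receptors for IgG (*Fcgr1*, *Fcgr2b*, *Fcgr3*, and *Fcgr4*), the subunits of the high-affinity IgE receptor (*Fcer1a*, *Ms4a2*, and *Fcer1g*), the lipid- and lipoprotein-sensing receptor TREM2 (*Trem2*) with its adaptor DAP12 (*Tyrobp*), and the kinase SYK (*Syk*). They were found through the RefSeq transcript that the array design gives for each probe, and each was represented by 1 probe, among 19748 genes in all. The probes of 8 genes were well above background on all 3 arrays, that of *Fcer1a* on 1 array, and that of *Ms4a2* on none.

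The macrophages (CD11b+Gr1-F480+) were sorted from enzyme-digested backskin of untreated CD1 mice in telogen, the resting phase of the hair follicle cycle. The sample labels give postnatal days 42, 55, and 69, which stand for early telogen (Te), mid telogen (Tm), and late telogen (Tl), although the study itself places Te slightly later than its label. For each stage, RNA pooled from 3 littermate mice was amplified and hybridized to 1 array, so that there are no replicates, no spread between animals, and no test between stages. Before staining, the cells had been incubated with a blocking reagent against CD16/CD32, the proteins encoded by *Fcgr3* and *Fcgr2b*.

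The deposited files disagree on which array is Tm and which is Tl. A table of processed log2 values that the authors also deposited holds, in its Tm column, the values of the scanner file assigned to Tl (99.9% of 36380 probes within 0.05 of the median offset), and in its Tl column those of the file assigned to Tm (99.8%). The arrays are named here after their scanner files, as the arrays filed as Tm and as Tl. If the table is right, every change from Te to one of these arrays belongs to the other stage.

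Activating Fc receptors have no enzyme of their own. They signal through an adaptor that carries an immunoreceptor tyrosine-based activation motif (ITAM), which Src family kinases phosphorylate and which then recruits SYK. The gamma chain FcRγ, encoded by *Fcer1g*, is the adaptor of the activating IgG receptors and of the IgE receptor, and DAP12 is that of TREM2 and many other myeloid receptors. *Fcgr2b* encodes the inhibitory member of the family, whose cytoplasmic tail recruits the phosphatase SHIP1 instead. In macrophages these receptors drive the uptake of antibody-coated particles, and TREM2 the uptake of lipids and cell debris.

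Levels are given as the log2 signal relative to the 75th percentile of the same array, and a change is the difference between the levels of 1 probe on 2 arrays. A probe is called dim where the scanning software did not find it well above background. The share of probes well above background was 71.4% on Te, 59.6% on the array filed as Tm, and 68.7% on that filed as Tl. Repeated spots of a probe on an array gave the one measure of error. Propagated to a change, its SD was 0.16 to 0.17 on the log2 scale, and 2 SD (0.33 from Te to Tl, 0.32 from Te to Tm, and 0.31 between the later arrays) was taken as the range of spot error. It covers neither the mice nor the sort nor the amplification.

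Most of the 10 genes differed between the arrays by amounts that many genes showed. From Te to the array filed as Tl, *Fcgr4* and *Trem2* were at least 2-fold higher, 2 of 8 genes with a value, where 22.1% of the 16160 genes with a value were. *Fcgr2b*, 1 of 8, was at least 2-fold lower, against 20.7% of all genes. From Te to the array filed as Tm, *Trem2* was at least 2-fold higher, against 29.1% of 15839 genes, and 0 of 8 were as much lower, against 16.9%. None of the 8 reached the 10-fold difference that the study's methods use as a threshold in either comparison, and few genes did (0.668% higher and 0.464% lower from Te to Tl, and 1.12% and 0.316% from Te to Tm).

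The median change of the 8 genes was -0.38 from Te to the array filed as Tl and 0.30 to that filed as Tm, beside 0.15 and 0.22 for all genes. Between the later arrays it was -0.58, beside -0.15. Both comparisons from Te use the same Te array, so that an error of that array enters both.

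**Figure D1:**
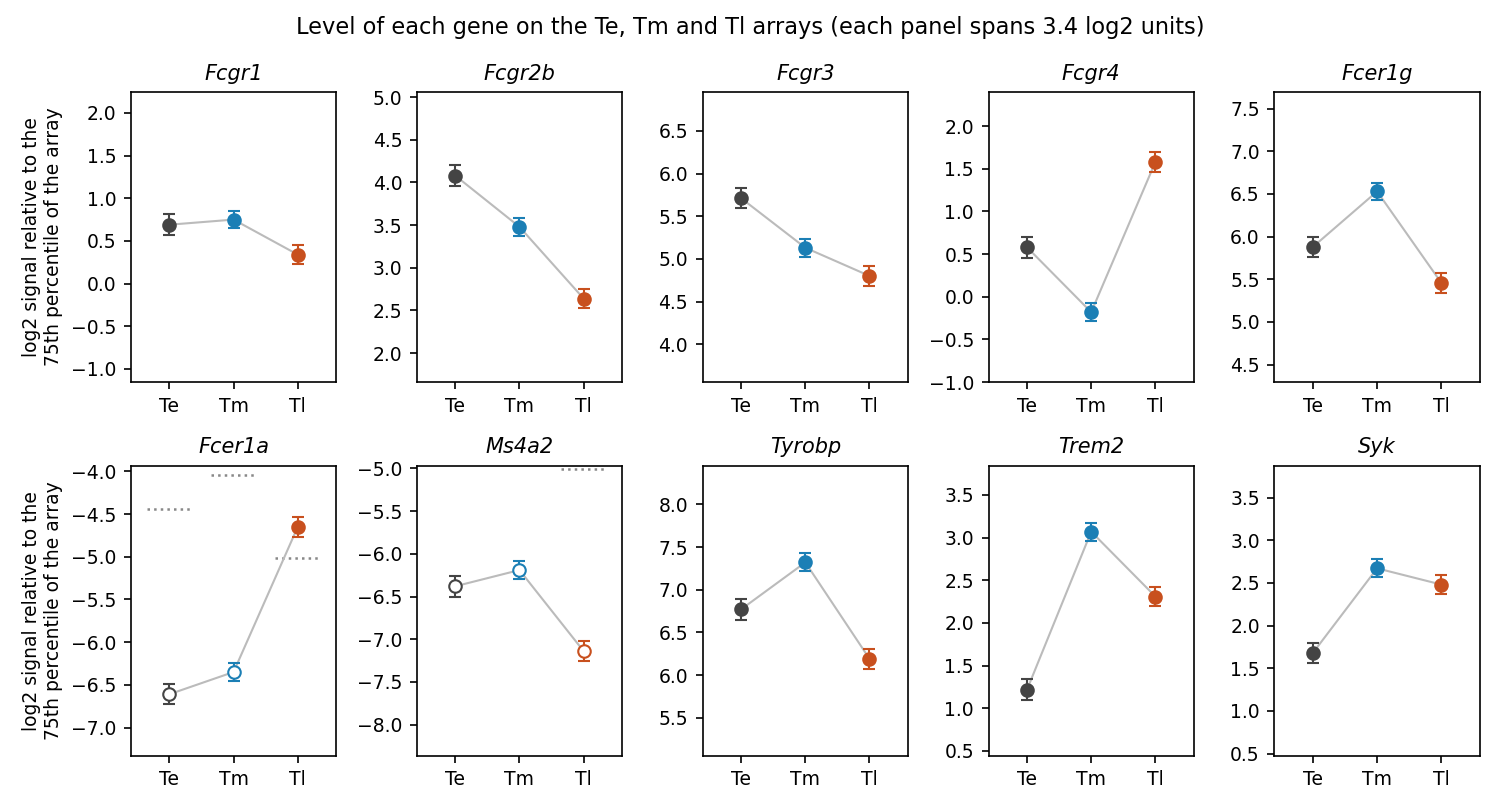
Level of each of the 10 genes (log2 signal relative to the 75th percentile of the array, y axis) on the Te, Tm, and Tl arrays as deposited (x axis), 1 array per point. Each panel spans the same number of log2 units and has its own origin, since levels of different probes are not comparable. Bars are 1 SD of repeated spots, open points are not well above background, and dotted lines mark the lowest level called above background on an array where it falls inside the panel. *Fcgr2b* and *Fcgr3* are highest on Te, *Fcgr4* is highest on the array filed as Tl, and *Fcer1g*, *Tyrobp*, *Trem2*, and *Syk* are highest on that filed as Tm.

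Among the IgG receptors, the inhibitory *Fcgr2b* had the largest decrease. Its signal was 6987 on Te, 5551 on the array filed as Tm, and 5784 on that filed as Tl, which are levels of 4.08, 3.48, and 2.64. Te was thus the highest and the array filed as Tl the lowest. The change from Te was -1.44 to the array filed as Tl (2.71-fold lower) and -0.59 to that filed as Tm. The *Fcgr2b* probe was the only one of the 10 printed in 10 spots per array, of which 9, 9, and 6 were usable on Te, Tm, and Tl. Their signals ran from 6610 to 7761 on Te, from 5168 to 6242 on Tm, and from 5585 to 6106 on Tl. Before scaling, the Te spots lay above those of both later arrays, which overlapped each other. The separation of the later arrays therefore depended on the scaling: the 75th percentile of the signal was 414 on Te, 497 on Tm, and 927 on Tl. The sign of the change from Te was negative under all alternatives in both comparisons, but its size from Te to Tl ran from -1.64 to -0.27, the latter with no scaling, and to Tm it was -0.04 with scaling to the median. Both small values lie within the range of spot error set above, which comes from repeated probes in general. The spots of *Fcgr2b* itself varied less (SD 0.063 on Te, 0.087 on Tm, and 0.052 on Tl). The unscaled value of -0.27 exceeded that variation, since the Te and Tl spots did not overlap.

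*Fcgr3*, which encodes the activating low-affinity receptor CD16 (FcγRIII), had levels of 5.71 on Te, 5.13 on Tm, and 4.80 on Tl (signals of 21698, 17393, and 25875). It was highest on Te as well, with changes of -0.91 (1.88-fold lower on the array filed as Tl) and -0.58. Without scaling its signal was higher on Tl than on Te by 0.25 on the log2 scale. The difference between the changes of 2 genes does not depend on a scaling constant, and by this measure *Fcgr3* and *Fcgr2b* differed by 0.01 from Te to Tm (SD 0.23 from spot error), whereas from Te to Tl *Fcgr3* decreased by less (difference 0.53, SD 0.24).

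*Fcgr4* encodes the activating receptor FcγRIV, which mice have in addition to FcγRIII. It went the other way on the array filed as Tl. Its signals were 617 on Te, 440 on Tm, and 2774 on Tl, and its levels 0.58, -0.18, and 1.58. The array filed as Tl stood above the other two, with a change of 1.01 from Te (2.01-fold higher) and 1.76 from Tm (3.38-fold higher), and the change from Te to Tm was -0.75. Between the later arrays 7.85% of 14842 genes were at least 2-fold higher, and *Fcgr4* was 1 of 8 here. Relative to *Fcgr2b*, *Fcgr4* differed by 2.44 from Te to Tl (SD 0.24) and by -0.16 from Te to Tm (SD 0.23). In the authors' log2 table these are the values of the opposite stages, so that *Fcgr4* is higher at Tm and lower at Tl.

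*Fcgr1*, which encodes the high-affinity receptor CD64 (FcγRI), varied least of the IgG receptors. Its levels were 0.69, 0.75, and 0.34 on Te, Tm, and Tl (signals of 669, 834, and 1177). The change from Te to Tm, 0.06, was within the spot error. That from Te to Tl, -0.35, was just outside it and had the opposite sign when arrays were scaled to their median or not at all. The ranking depended on the scaling as well. With scaling to the median, *Fcgr1* changed by 0.61 to Tm and 0.17 to Tl, and *Fcgr3* by -0.02 and -0.39.

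Counting protein-coding genes only, *Fcgr2b*, *Fcgr4*, and *Fcgr3* are direct neighbours in this order on chromosome 1 (RefSeq, assembly GRCm38.p6). *Fcer1g* lies further along, with 7 other such genes between *Fcgr3* and *Fcer1g*. Thus *Fcgr4*, higher on the array filed as Tl, is flanked by 2 genes with lower levels there. Of the genes between *Fcgr3* and *Fcer1g*, *Cfap126* had a change from Te to Tl of -0.79 and *Sdhc* of 1.34, so no shared direction ran through this stretch. The RNAs of the receptor genes are similar in sequence, and binding of one to the probe of another was not tested.

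The promoter windows of these 3 neighbours and of *Trem2*, the gene of the 10 with the largest change from Te, are shown because their genes differed in direction (RefSeq, GRCm38.p6). Each runs 5′ to 3′ on the strand of the gene, from 250 bases before the transcription start to 50 bases after it. Capitals mark the letters GAGGAA or, on the other strand, TTCCTC, the core of the motif bound by PU.1, a transcription factor of the myeloid lineage.
Fcgr2b, chr1:170976022-170976321, - strand: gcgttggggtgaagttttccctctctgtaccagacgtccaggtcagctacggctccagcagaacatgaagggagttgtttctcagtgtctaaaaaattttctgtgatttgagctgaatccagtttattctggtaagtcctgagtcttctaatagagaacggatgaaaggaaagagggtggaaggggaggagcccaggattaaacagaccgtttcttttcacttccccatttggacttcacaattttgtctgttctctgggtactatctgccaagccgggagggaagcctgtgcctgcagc
Fcgr4, chr1:171018676-171018975, + strand: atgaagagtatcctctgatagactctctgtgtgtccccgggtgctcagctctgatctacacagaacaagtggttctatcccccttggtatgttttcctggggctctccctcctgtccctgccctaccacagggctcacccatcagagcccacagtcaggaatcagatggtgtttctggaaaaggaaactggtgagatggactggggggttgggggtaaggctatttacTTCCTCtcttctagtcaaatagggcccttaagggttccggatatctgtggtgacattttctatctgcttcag
Fcgr3, chr1:171059354-171059653, - strand: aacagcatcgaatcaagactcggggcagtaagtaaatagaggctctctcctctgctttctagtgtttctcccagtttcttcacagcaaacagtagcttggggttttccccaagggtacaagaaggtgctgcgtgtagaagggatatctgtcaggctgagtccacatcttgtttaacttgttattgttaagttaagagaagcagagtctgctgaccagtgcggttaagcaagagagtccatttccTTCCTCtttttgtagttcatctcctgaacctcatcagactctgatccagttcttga
Trem2, chr17:48346151-48346450, + strand: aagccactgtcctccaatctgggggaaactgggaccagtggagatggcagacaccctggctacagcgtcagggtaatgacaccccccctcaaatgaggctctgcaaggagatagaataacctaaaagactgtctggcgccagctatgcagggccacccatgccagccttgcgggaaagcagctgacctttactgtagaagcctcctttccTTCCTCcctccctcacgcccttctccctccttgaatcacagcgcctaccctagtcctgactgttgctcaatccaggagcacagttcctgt

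The core was found as TTCCTC at base 229 of the *Fcgr4* window, base 245 of the *Fcgr3* window, and base 211 of the *Trem2* window, counted from the 5′ end. These letters are not in the *Fcgr2b* window. Of the 10 genes, 9 had a window, and 5 of these held the core (*Fcgr1*, *Fcgr3*, *Fcgr4*, *Fcer1a*, and *Trem2*), beside 28.3% of 27025 genes. The presence of the core did not follow the direction of change, since *Fcgr3* and *Fcgr4* both hold it.

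The gamma chain gene *Fcer1g* had signals of 24403 on Te, 45834 on Tm, and 40850 on Tl, and levels of 5.88, 6.53, and 5.46. Relative to the array scale it was highest on the array filed as Tm, with changes from Te of 0.65 to Tm and -0.42 to Tl. The negative change to Tl depended on the scaling: the unscaled signal was 1.67 times that of Te and the sign also turned with quantile normalization and with scaling to the median. The change between the later arrays was -1.07 (2.09-fold lower on Tl). *Fcer1g* and *Tyrobp* were the 2 of 8 genes that were at least 2-fold lower there, beside 11.3% of all genes, and 0 of 8 differed 10-fold (0.0539% of all genes were higher and 0.128% lower). Relative to its adaptor gene, *Fcgr4* differed by 1.43 from Te to Tl and by -1.40 from Te to Tm, and *Fcgr3* by -0.49 and -1.23.

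The 2 subunits that make the IgE receptor of mast cells and basophils were at or near background. *Fcer1a*, the chain that binds IgE, had signals of 4.2, 6.1, and 37.0 on Te, Tm, and Tl and was well above background only on the array filed as Tl. No fold is given, since the lowest level called above background on Te (-4.44) was above its level on Tl (-4.65). *Ms4a2*, the signal-amplifying beta chain, had signals of 5.0, 6.8, and 6.6 and was well above background on none of the arrays. Thus of the 3 IgE receptor genes, *Fcer1g*, which the IgG receptors also use, was the one measured throughout.

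Of 10 mast cell and basophil markers with a probe, 8 were well above background on Te, 3 on Tm, and 8 on Tl, and their summed level on the linear scale (the 75th percentile of an array being 1) was 4.24, 1.84, and 1.70. Most of it came from the tryptase gene *Tpsb2*, without which it was 1.06, 0.422, and 0.943. *Kit*, the stem cell factor receptor gene, had levels of -3.63 on Te and -3.39 on Tl and was dim on Tm. The protease gene *Cpa3* was likewise dim on Tm, with levels of -3.48 on Te and -3.35 on Tl. *Cma1*, another mast cell protease gene, was well above background on all 3 arrays (-3.74, -3.04, and -2.85). The part of such cells in the *Fcer1a* signal was not tested.

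**Figure D2:**
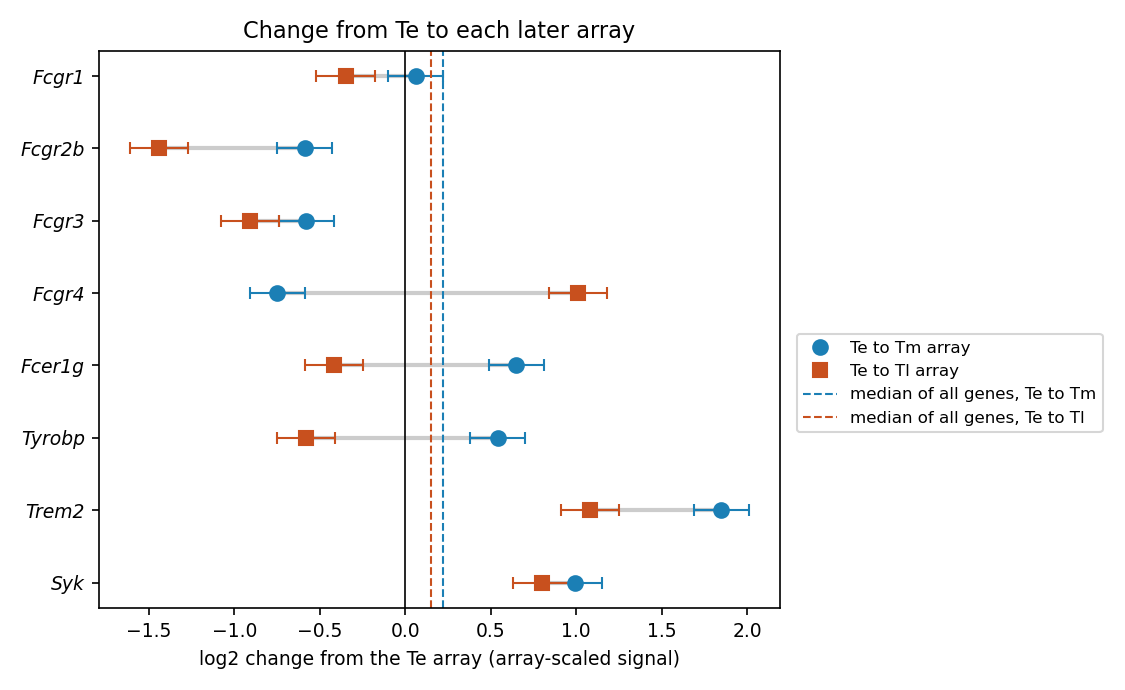
Log2 change of the 8 genes with a value from the Te array to the arrays filed as Tm (circles) and as Tl (squares), on the x axis, with 1 SD of spot error and 1 array per stage. Dashed lines mark the median change of all genes. *Trem2* and *Syk* lie right of 0 and *Fcgr2b* and *Fcgr3* left of 0 in both comparisons, whereas the 2 points of *Fcgr4*, *Fcer1g*, and *Tyrobp* lie on opposite sides of 0.

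*Trem2* had the largest change of the 8 genes from Te to the array filed as Tm. Its signals were 966 on Te, 4171 on Tm, and 4583 on Tl, and its levels 1.22, 3.07, and 2.31. Both later arrays stood above Te, with changes of 1.85 (3.6-fold higher on Tm) and 1.08 (2.12-fold higher on Tl). The sign was the same under all alternatives, with ranges of 1.08 to 2.41 and 0.88 to 2.25, respectively, and it did not depend on which later array is which stage.

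*Tyrobp*, the gene of its adaptor DAP12, had a smaller increase than *Trem2* to Tm and a decrease to Tl that depended on the scaling. It had signals of 45290, 79198, and 67861 and levels of 6.77, 7.32, and 6.19 on Te, Tm, and Tl, highest on the array filed as Tm and lowest on that filed as Tl. The changes from Te were 0.54 to Tm and -0.58 to Tl, and the latter turned its sign with quantile normalization and without scaling (0.58). The change of *Trem2* exceeded that of *Tyrobp* by 1.30 from Te to Tm (SD 0.23, 2.47-fold) and by 1.66 from Te to Tl (SD 0.24, 3.17-fold). Under the other settings the difference ran from 0.72 to 1.66 and from 0.76 to 1.76, lowest with quantile normalization in both comparisons. Between the later arrays the levels of *Trem2* (-0.76) and *Tyrobp* (-1.12) were both lower on Tl. These changes differed by 0.36 (SD 0.22).

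*Syk*, the kinase shared by both adaptors, had signals of 1326 on Te, 3155 on Tm, and 5168 on Tl and levels of 1.68, 2.67, and 2.48. It was higher on both later arrays, with changes of 0.99 and 0.80 and positive values under all alternatives (0.54 to 1.55 and 0.59 to 1.96), while the later arrays differed by -0.19, within the spot error. Its change exceeded that of *Tyrobp* by 1.38 from Te to Tl (SD 0.24) and that of *Fcer1g* by 1.22. With quantile normalization these differences were smaller, 0.46 and 0.52. From Te to Tm the differences were 0.44 and 0.34 (SD 0.23), and the former was -0.12 with quantile normalization.

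The changes of the 2 adaptor genes were within the spot error of each other. The change of *Tyrobp* differed from that of *Fcer1g* by -0.16 from Te to Tl and -0.10 from Te to Tm (SD 0.24 and 0.23). Many other genes had changes as close to theirs. Among 13074 genes well above background on all 3 arrays, 345 (2.64%) lay within 2 SD of *Fcer1g* in the plane of both changes and 273 (2.09%) within 2 SD of *Tyrobp*. The nearest to *Fcer1g* were *Chpf*, *Adam15*, *Marchf4*, *Sec22c*, and *Galt*, at distances of 0.012 to 0.043 (log2), and among the nearest to *Tyrobp* were *Gm826*, *Gpr25*, *Tuba1a*, and *Gm6981*, at 0.008 to 0.042. The adaptors lay 0.19 apart, at rank 102 from *Fcer1g* and rank 83 from *Tyrobp*.

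The widest gap that both later arrays shared was that between *Trem2* and the inhibitory *Fcgr2b*. The change of *Trem2* exceeded that of *Fcgr2b* by 2.52 from Te to Tl (5.73-fold, SD 0.24) and by 2.44 from Te to Tm (5.43-fold, SD 0.23). Under the other settings these values ran from 2.44 to 2.56 and from 2.40 to 2.52. This pair was chosen after its values were seen.

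The rest of the receptor pathways was examined in 8 lists with 113 genes, of which 112 had a probe. From Te to Tl, 102 had a value, with a median change of 0.09, and 20 (19.6%) were at least 2-fold higher and 17 (16.7%) at least 2-fold lower. From Te to Tm, 100 had a value, with a median of 0.05, and 26 (26%) and 13 (13%) passed these limits. These shares are near those of all genes given above.

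Other receptors for immunoglobulins had a median change of -0.78 from Te to Tl (8 genes with a value, 1 at least 2-fold higher and 3 lower) and -0.24 to Tm (7 genes). *Trim21*, a cytosolic antibody receptor, had changes of 1.17 and 0.01, and *Fcgrt*, the neonatal Fc receptor that recycles IgG, of 0.34 and 0.36. *Pigr*, which transports polymeric IgA and IgM across epithelia, had changes of -1.58 and -0.88, and *Fcrl5*, an Fc receptor-like gene of B cells, of -1.26 and -1.96.

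Receptors other than TREM2 that pair with DAP12 or FcRγ lay mostly below 0, in 12 of 18 genes from Te to Tl (median -0.78, 1 at least 2-fold higher and 6 lower) and in 15 of 18 to Tm (median -0.36, 1 higher and 5 lower). Of all genes with a value, 54.7% were above 0 to Tl and 55.8% to Tm. Several values to Tm, such as those of *Siglech* (-0.15) and *Cd300lb* (-0.12), were within the spot error. *Clec4n*, the fungal receptor Dectin-2, was the gene at least 2-fold higher on Tl (1.04, and 0.94 on Tm). *Pilrb1* had changes of 0.41 and -0.27. *Cd300e* (-1.54 and -1.15) and *Oscar*, a collagen receptor (-1.49 and -1.27), were lower on both. Bounds against an array where the probe was dim made up 2 of the 18 values to Tl and 4 of the 18 to Tm. *Clec5a* and *Klrk1*, among the 6 lower to Tl, were such bounds. Of the same 6, *Ncr1* had low levels (-3.02 on Te and -4.28 on Tl), and *Pira2* (-1.02) had a change of 0.22 by its other probe. *Trem1* (levels of 5.35 on Tm and 5.57 on Tl) had no value on Te and is not counted. *Trem2* itself (1.08 and 1.85) is not in this list.

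Of the other ITAM adaptors, *Cd3e* and *Cd3g* of the T cell receptor complex had changes from Te to Tl of 3.08 and 1.02 (to Tm 4.20 and 0.71), *Cd3d* of -0.17 (0.71), and *Cd79b* of the B cell receptor of -0.66 (-0.74). The median of 6 genes was 0.33 from Te to Tl (2 at least 2-fold higher, 0 lower) and 1.12 to Tm (3 and 0). T cell markers, 3 of which are these *Cd3* genes, were well above background in 7, 7, and 8 of 8 on Te, Tm, and Tl, with a summed level of 6.17, 10.9, and 7.32. The part of T cells in these values was not tested.

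The Src family and Tec kinases, which phosphorylate ITAMs and act beside SYK, had medians of 0.01 and -0.29 (12 genes in each comparison). From Te to Tl 0 were at least 2-fold higher and 3 lower, and from Te to Tm 2 and 3. Of the myeloid Src kinases, *Fgr* had changes of 0.92 and 1.18, and *Lyn* of 0.40 and -0.17. *Btk* had changes of 0.68 and 0.28, and 0.13 and -0.60 by its other probe. *Bmx*, a Tec kinase, was lower (-1.07 and -1.24). The SYK relative *Zap70* had changes of -1.25 and -1.09, but its other probe, dim on Te, was higher (log2 fold of at least 1.35 and 0.63).

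Adaptors and effectors below SYK had medians of 0.39 from Te to Tl and 0.57 to Tm over 27 genes, of which 7 and 10 were at least 2-fold higher and 3 and 2 lower. *Card9* (2.01 and 2.46) and *Malt1* (1.89 and 1.37), 2 components of a complex that leads from SYK to NF-κB, had the largest increases from Te to Tl. *Plcg2*, the phospholipase that SYK activates in myeloid cells, had changes of 1.56 and 2.13. The guanine nucleotide exchange factors *Vav3* (-2.08 and -1.07) and *Vav2* (-1.62 and -1.51) had the largest decreases.

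ITIM receptors and other negative regulators had medians of 0.54 over 23 genes (7 at least 2-fold higher, 1 lower) and 0.34 over 22 genes (7 and 0). Unlike *Fcgr2b*, its downstream phosphatase gene *Inpp5d* (SHIP1) had positive changes, 0.64 and 1.47. So did *Ptpn6*, which encodes the phosphatase SHP-1 (1.33 and 1.95), *Dok3* (1.74 and 2.67), and *Ubash3b* (1.92 and 1.96). The inhibitory receptor genes *Siglece* (-1.10 and -0.72) and *Cd300a* (-0.74 and -0.55) were lower, as *Fcgr2b* was.

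The phagocyte NADPH oxidase, which makes superoxide on Fc receptor signals, was split between its subunits. The cytosolic subunit genes *Ncf4* (2.03 and 2.84) and *Ncf1* (1.89 and 2.58) were higher on both later arrays. The catalytic membrane subunit *Cybb* was lower (-1.30 and -1.95), and its partner *Cyba* had changes of -0.74 and 0.04. Of the TREM2 ligands, *Clu* had changes of 0.95 and 0.48, *Lgals3* of 0.25 and 1.23, and *Apoe* of -0.50 and 0.03.

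**Figure D3:**
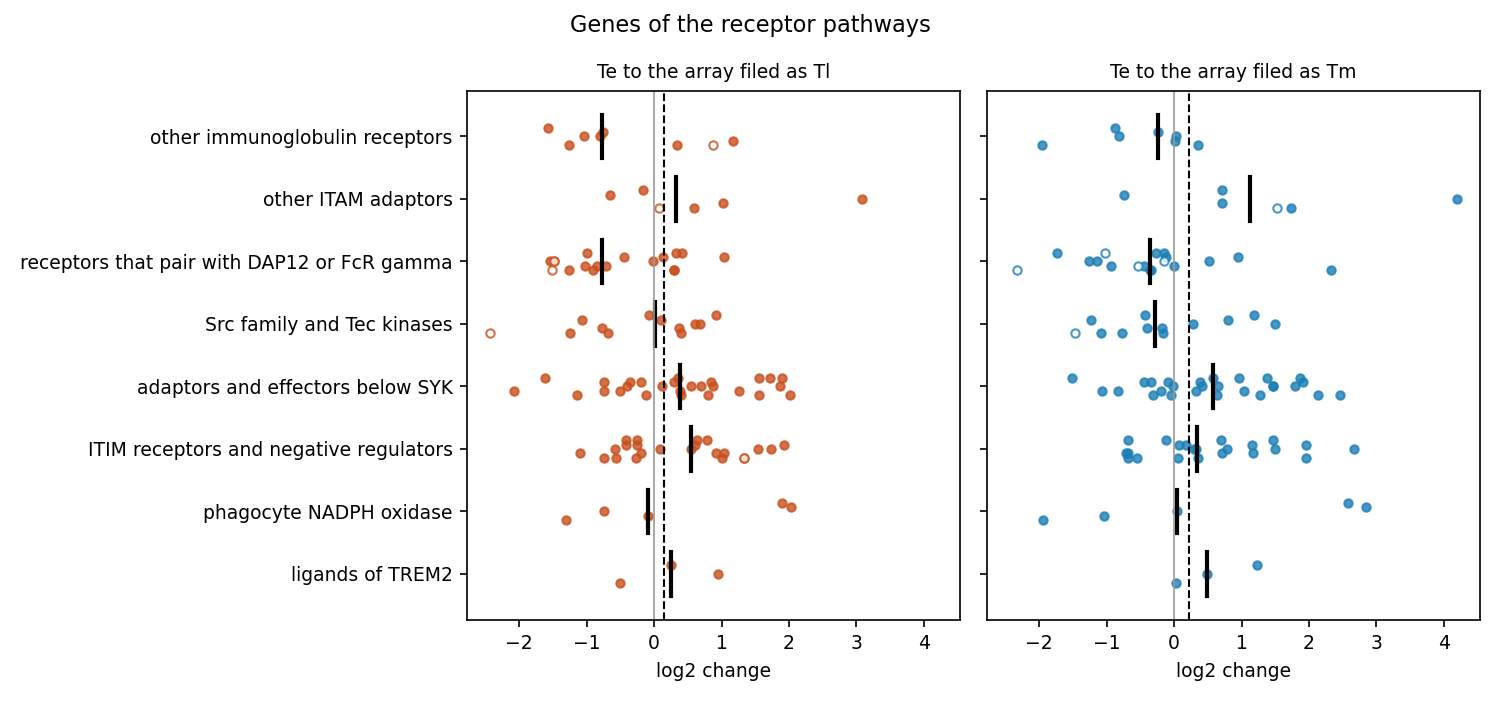
Log2 change of the genes of 8 lists from the Te array to the arrays filed as Tl (left) and as Tm (right), on the x axis, 1 point per gene and 1 array per stage. Open points are bounds against an array where the probe was dim, vertical bars are list medians, and the dashed line is the median of all genes (0.15 and 0.22). Receptors that pair with DAP12 or FcRγ have medians of -0.78 and -0.36, left of the line, and genes below SYK have medians of 0.39 and 0.57, right of it.

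The label of the sorted cells was checked against marker genes. All 16 macrophage markers with a probe were well above background on all 3 arrays. So were at least 13074 of the 19748 genes, all 12 keratinocyte markers, and all 6 endothelial markers, so this count does not tell cell types apart. The macrophage markers had a median change of -0.20 to Tl and -0.18 to Tm. Their summed level was 1050, 1000, and 684 on Te, Tm, and Tl, or 556, 579, and 453 without *Itgam*. The sort markers *Adgre1* (F480) and *Itgam* (CD11b) had changes from Te to Tl of 0.33 and -1.10 and to Tm of 0.69 and -0.23, and *Csf1r*, the receptor for the macrophage growth factor M-CSF, of 0.16 and 0.70. The other 2 probes of *Itgam* gave -0.79 and -0.13 to Tl and -1.06 and -1.08 to Tm.

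Most keratinocyte markers and some Langerhans, dendritic, and T cell markers moved with the higher values of *Trem2* and *Syk*. The medians of fibroblast and endothelial markers did not. All 12 keratinocyte markers were well above background on all arrays, and their median change was 3.15 to Tl and 3.29 to Tm, with 9 and 10 at least 2-fold higher. *Krt5* and *Krt14* had changes of 3.32 and 2.88 to Tl and of 3.97 and 3.13 to Tm. The summed level of this list was 273, 396, and 265 on Te, Tm, and Tl, most of it from *Trp63*, which had changes of -0.68 to Tl and 0.01 to Tm. Without *Trp63* it was 11.1, 133, and 102. Of 7 Langerhans and dendritic cell markers with a probe, 6, 6, and 7 were well above background, and their summed level was 45.3, 148, and 83.7, or 31.6, 39.2, and 23.9 without *Cd207*. *Cd207*, which encodes langerin, had changes of 2.13 and 2.99 and *Itgax* (CD11c) of 2.17 and 2.73, whereas the list's median was -0.92 to Tl and 0.09 to Tm. T cell markers were above 0 in 6 of 8 genes in both comparisons (medians 0.30 and 0.71). Fibroblast markers had medians of -0.33 to Tl and -0.85 to Tm, with a summed level of 93.6, 48.6, and 50.7. They were above 0 in 4 of 8 genes to Tl and 2 of 7 to Tm, among them *Thy1* (1.01 and 1.42). Endothelial markers had medians of -0.06 and -1.03, with 3 of 6 and 0 of 6 above 0. The part of keratinocytes and of Langerhans, dendritic, and T cells in the changes of *Trem2* and *Syk* was not tested. In such bulk samples, more cells of a type and more RNA per cell cannot be told apart.

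The summed levels of NK cell, B cell, and neutrophil markers were lower on the later arrays, but each sum came mostly from 1 gene. That of the Langerhans and dendritic cell markers was higher on both (45.3, 148, and 83.7), though not on Tl without *Cd207* (31.6, 39.2, and 23.9). Of 7 NK cell markers, 6, 3, and 4 were well above background on Te, Tm, and Tl, with a summed level of 8.1, 5.53, and 4.19 (0.457, 0.295, and 0.278 without the perforin gene *Prf1*). Of these markers *Klrb1c* was higher (1.31 to Tl and 1.72 to Tm), and *Ncr1* had levels of -3.02 on Te and -4.28 on Tl and was dim on Tm. The B cell marker *Cd79a* was well above background on none of the arrays, and the summed level of 6 B cell markers was 89.3, 29.9, and 25.1 (5, 2.88, and 3.04 without *Cd22*). Of 8 neutrophil markers, 5 were well above background on each array, with a summed level of 83.6, 57, and 45.3. Without *Csf3r* it was 1.39, 5.16, and 3.02, lowest on Te, and *Cxcr2* had changes of 1.34 to Tl and 2.16 to Tm. The sort gate was negative for the granulocyte antigen Gr1, but how far it left neutrophils out was not tested. The level of *Fcgr2b* was also highest on Te. So were the summed levels of the macrophage, NK cell, B cell, neutrophil, mast cell and basophil, fibroblast, and endothelial markers. Without *Itgam*, however, the macrophage sum was highest on the array filed as Tm (556, 579, and 453 on Te, Tm, and Tl). The part of cells other than macrophages in the change of *Fcgr2b* was not tested. The 10 housekeeping genes had medians of -0.00 to Tl and 0.76 to Tm.

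**Figure D4:**
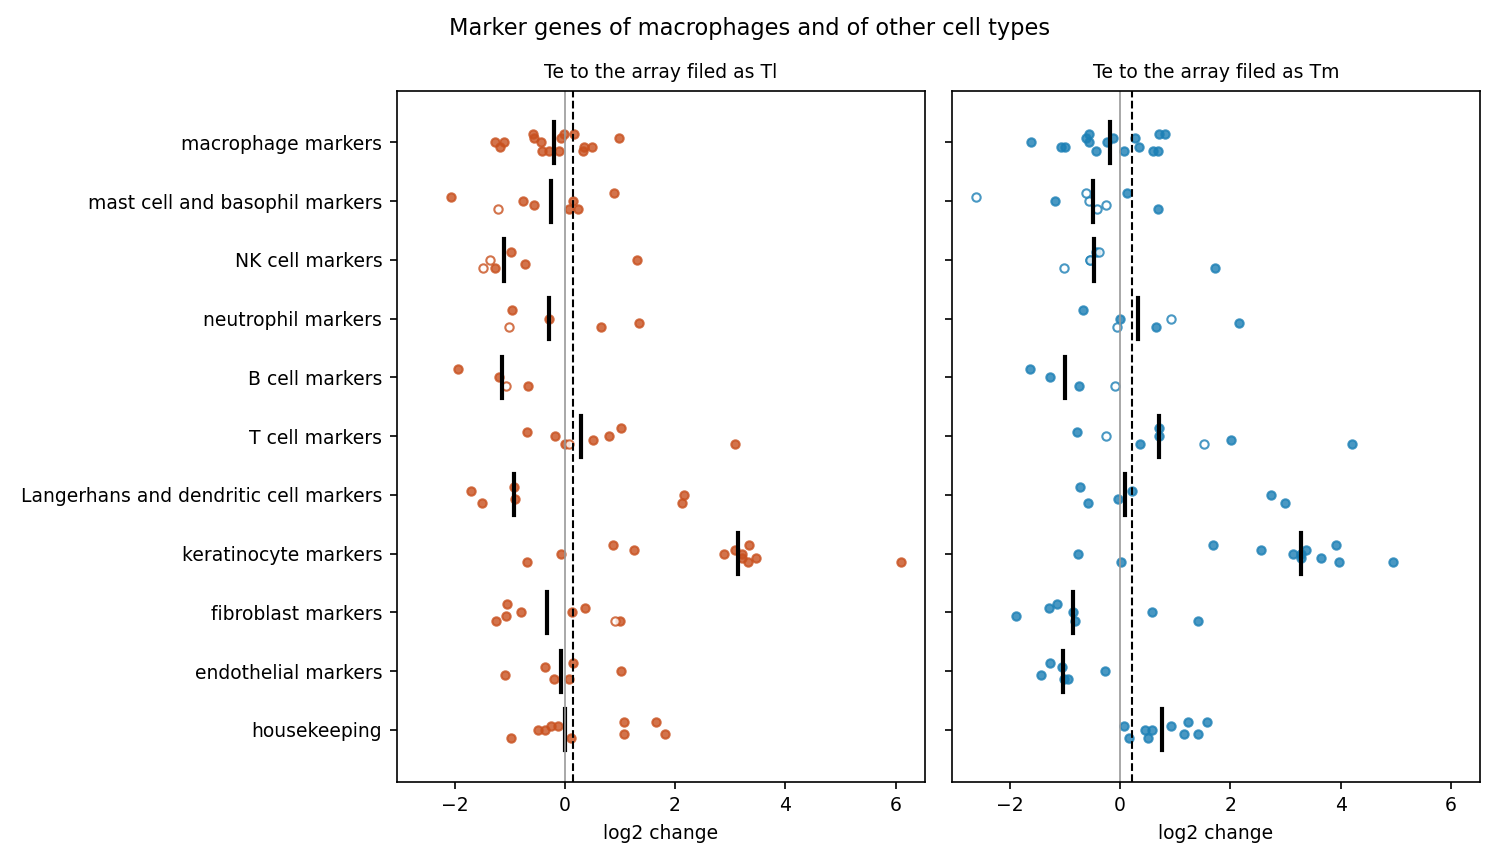
Log2 change of marker genes from the Te array to the arrays filed as Tl (left) and as Tm (right), on the x axis, 1 point per gene, 1 row per cell type, and 1 array per stage. Open points are bounds against an array where the probe was not well above background, vertical bars are list medians, and the dashed line is the median of all genes. Macrophage markers centre near 0 (medians -0.20 and -0.18), and keratinocyte markers lie far to the right (3.15 and 3.29).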

How the data were processed

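Gene expression was measured on 1-color Agilent arrays of FACS-sorted macrophages, 1 array per stage. The authors quantified the scans with Feature Extraction (10.7.3.1). The intensities they deposited are background-corrected by that software, on a linear scale, and not normalized between arrays, and the other columns used are its calls of background, outliers, and saturation. The log2 values of the table deposited by the authors are centred per probe on the median of the 3 arrays and restricted to probes that vary, and their scaling is not given in the sources used here. No spot was saturated.

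Control and outlier spots were left out, spots of a probe were averaged, and log2 signals were scaled by subtracting the 75th percentile per array. Probes were called well above background where at least 0.5 of their spots were. Where this held on only 1 of the 2 arrays, the fold was computed against the lowest level called on the other array, as a bound. Of 55681 probes 26050 had a gene symbol through RefSeq names, and the brightest probe stood for a gene. The genes named are all 10, the up to 2 with the largest increase and decrease per list among genes called on all arrays, and some named in advance, a few of which are not reported here. The genes and lists were chosen with earlier results of these data known. Steps were tested on simulated data. Python 3.11.15, numpy 2.4.6, pandas 2.3.3, and limma 3.58.1 (normexp) were used. All arrays were on 1 slide. Their number limits the precision, and no p-values are given. Probe sequences were not used here.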

Additional observations from a re-analysis of the deposited data

Results flagged for a closer look

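For 3 genes the array filed as Tm and that filed as Tl lay on opposite sides of Te. *Fcgr4* was lower on Tm and higher on Tl, and the change between the later arrays was 1.76. *Fcer1g* was higher on Tm and lower on Tl, with a change between them of -1.07, and *Tyrobp* likewise, with -1.12. With 1 array per stage these differences were not tested. These directions turn round if the later arrays are exchanged, as the processed log2 table has them.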

How the results depend on the processing

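From Te to Tl 1 gene was at least 2-fold lower and 2 were higher, and from Te to Tm 0 and 1. The count of lower genes from Te to Tl was 2 with the 75th percentile taken over probes well above background on all arrays, and 0 with scaling to the median, without scaling, with the processed log2 table, and with the later arrays exchanged. That of higher genes was 0 with that percentile and with quantile normalization, 1 with normexp, with the table, and exchanged, and 3 with scaling to the median, without scaling, with a positive and significant signal in place of the background call, with no filter on dim probes, and at 1.5-fold. From Te to Tm the count of lower genes was 1 with that percentile, with the table, and exchanged, and 2 with quantile normalization. That of higher genes was 4 with the median, and 2 without scaling, with the table, and exchanged. At 1.5-fold 2 genes were lower from Te to Tl, and 2 were lower and 3 higher from Te to Tm, and at 10-fold all counts were 0.

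The median change from Te to Tl (-0.38) was -0.59 with that percentile, 0.18 with quantile normalization, 0.17 with the median, 0.82 without scaling, 0.55 with the table, and 0.30 exchanged. From Te to Tm (0.30) it was, in the same order, -0.07, 0.11, 0.86, 0.56, -0.42, and -0.38. Between the later arrays (-0.58) it was -0.42 with that percentile, -0.28 with quantile normalization, 0.29 without scaling, 0.84 with the table, 0.58 exchanged, and -0.40 where a positive and significant signal replaced the background call. All genes moved with the scaling too: their median change from Te to Tl (0.15) was -0.05, 0.30, 0.65, and 1.32 under the first 4 of these settings, and that of the genes described here was below it in each (differences of -0.53, -0.13, -0.48, and -0.50). *Fcgr4* reversed from Te to Tl (-0.75) with the table and with the arrays exchanged. The table holds 6 of the 10 genes. *Trem2* and *Syk* kept their sign from Te under all alternatives that gave a value. So did *Fcgr2b*, and *Fcgr3* from Te to Tm, but with scaling to the median their changes from Te to Tm were -0.04 and -0.02, within the spot error.

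No paired analysis was possible because each stage has 1 array, and for the same reason no array was left out. Signals near background limit *Fcer1a* and *Ms4a2*. For the other genes the unknown spread between animals and amplifications is the limit.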
